A study of Mus musculus with 12 samples.

Results

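Solute carriers are the membrane proteins that move amino acids, nucleosides, sugars, metals, ions and metabolites into cells and between their compartments. The 46 carriers described here are the Slc genes, from 22 numbered families, that 3 lists supplied with the study pair with a transcript of the deposited table, which holds 20561 transcripts in all. The reference gene list holds 361 Slc symbols, so 12.7% of them are covered, and the other carriers were not analysed here. Every name was chosen on the comparison described below, in the same libraries. Of the 46, 9 came from a list of genes higher at both the RNA and the translated level (Slc1a4, Slc7a7, Slc8a1, Slc12a2, Slc15a3, Slc30a4, Slc35d1, Slc35f2 and Slc36a1), and 32 came from the readable part of a list of genes with raised translation efficiency. The remaining 5 (Slc5a3, Slc10a3, Slc16a6, Slc25a33 and Slc25a37) came from a list of 5′ leader sequences, of whose 1631 readable entries 1226 stood in the translation efficiency list as well. The genotype differences of the carriers are therefore given as descriptions, library by library, with a standard error and no p-value.

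Lymphomas of genotype Eμ-Myc/+ (n = 3) were compared with those of genotype Eμ-Myc/+ Prps2null (n = 3) by RNA-seq and by Ribo-seq, 12 libraries in all. Ribo-seq sequences the mRNA fragments that ribosomes protect from nuclease (footprints), so it samples mRNA under translation, and translation efficiency (TE) is the footprint signal relative to RNA. In both genotypes the Eμ-Myc transgene expresses Myc from the immunoglobulin heavy chain enhancer, which is active in the B lineage. The Prps2null lymphomas, called Prps2null below, in addition lack Prps2, a synthetase of phosphoribosyl pyrophosphate, the precursor of purine and pyrimidine nucleotides. All libraries came from untreated allografts, for which 500000 thawed lymphoma cells were given by tail vein to male C57BL/6 mice aged 8 weeks, hosts with their own blood and stromal cells, and B cells were purified from the lymph nodes. The labels do not state from how many primary lymphomas the frozen stocks came, so the errors below measure the spread between these libraries.

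RNA-seq libraries held 4135908 to 6648829 counts and Ribo-seq libraries 975201 to 2793163. Levels are scaled CPM, which are counts relative to library size after median-of-ratios scaling within an assay. A value of 3 counts, the limit that a count of 0 allows, corresponded to 0.451 to 0.725 CPM in RNA-seq and 1.07 to 3.08 CPM in Ribo-seq, which covers counting error alone. Prps2 served as the check of the labels. In scaled CPM its RNA was 67.9, 65.0 and 60.4 in Eμ-Myc/+ and 10.1, 7.40 and 8.05 in Prps2null, as labelled. Its footprints were 162, 132 and 7.80 in Eμ-Myc/+ and 5.03, 139 and 9.62 in Prps2null, so Eμ-Myc/+ replicate 3 and Prps2null replicate 2 of the Ribo-seq stood against their labels. The libraries were kept in their labelled groups. For many of the carriers described, footprint log2 fold changes are given by label and without these 2 libraries, where the gene passed the filter. TE is given in both ways for a few. B-lineage markers were present in all libraries, and the 6 of them summed to 3366, 2571 and 2202 in Eμ-Myc/+ and 378, 755 and 773 in Prps2null in RNA-seq and to 3009, 2892 and 1379 in Eμ-Myc/+ and 1676, 2525 and 1602 in Prps2null in Ribo-seq. Cd74 made up most of the RNA sum in the Eμ-Myc/+ libraries (-2.83 ± 0.32 on the log2 scale), and 5 of the 6 were lower in RNA of the Prps2null lymphomas, whereas Ms4a1 was 8.66, 6.26 and 8.44 in Eμ-Myc/+ and 46.9, 67.1 and 83.8 in Prps2null (3.09 ± 0.26). The part of these marker differences in the values of the carriers below was not tested.

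Cells take up amino acids, inorganic phosphate and nucleosides through plasma membrane carriers, and carriers of the inner mitochondrial membrane exchange ADP for ATP, phosphate, citrate and iron with the cytosol. In growing B cells these imports feed protein and nucleotide synthesis. Myc, bound to its partner Max, recognises the E-box CACGTG, and mRNAs that begin with a 5′ terminal oligopyrimidine (TOP) run, a C followed by pyrimidines, are known for translation that depends on mTOR. Both features were looked up for the carriers because they lie at the start of transcription and of the mRNA.

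The first 20 bases of the listed 5′ leader were available for 27 of the 46 carriers, and a C followed by 4 to 15 pyrimidines opened 1 of them, Slc25a37, against 3.43% of the 1631 readable entries. A further 5 began with C, with runs of at most 3 pyrimidines. The starts of 5 carriers of the mitochondrial family are shown, because the RNA and footprints of this family are set side by side below, with the pyrimidine run from a first C in capitals.
Slc25a37: CTCTTCTTCTCCagctattg
Slc25a5: CCCagagcccgggagtcaaa
Slc25a3: aaatgagaggcgcgtggcgc
Slc25a17: gagacttctgagaggtgggg
Slc25a1: gggagctgacgtgaccaccc
Promoters of RefSeq transcripts, 250 bases before to 50 after the start on GRCm38.p6 (the sequence of mm10), were found for 34 carriers. The E-box CACGTG, which reads the same on both strands, lay in at least 1 promoter of 10 of them, 29.4%, against 8.91% of 17492 genes. Counted by start site, it lay in 11 of 53 carrier promoters (20.8%) and in 7.84% of 21263 promoters in all. Windows of 26 bases are shown for carriers with lower RNA (Slc43a1, Slc30a5, Slc29a1 and Slc25a1) and with higher RNA (Slc36a1), with the E-box in capitals.
Slc43a1, chr2:84840249-84840274, plus strand: ggtctccctcCACGTGgcagccgtgg
Slc30a5, chr13:100833473-100833498, minus strand: gaagcgaagcCACGTGtccaccagcg
Slc29a1, chr17:45595306-45595331, minus strand: gcagcgccagCACGTGgcgcgcatgg
Slc25a1, chr16:17928443-17928468, minus strand: gctccagacgCACGTGtctctaaact
Slc36a1, chr11:55204299-55204324, plus strand: aatggagcggCACGTGacctgggcta
Slc36a1, chr11:55204327-55204352, plus strand: gagccagcatCACGTGacagggcccg
Of the 10 carriers with an E-box, Slc36a1 was the only one called higher in RNA below, and that call was unstable. Slc12a7, Slc25a33 and Slc38a7 were not called and the others were called lower. The 17492 genes were not restricted to those expressed here, and a match of letters shows no binding.

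All 46 carriers passed the filter on low counts in RNA-seq. In the Prps2null lymphomas RNA was lower for 34 carriers and higher for 12, at a median log2 fold change of -0.73 against 0.08 over all 14682 transcripts tested. The edgeR quasi-likelihood test with Benjamini-Hochberg adjustment over all transcripts called 23 carriers lower and 7 higher, in a table where 18.5% of transcripts were called lower and 14.7% higher. Because the lists were drawn on this contrast, these counts describe the lists. Of the 7 higher, all stood in the list of genes higher at both levels: Slc12a2, Slc30a4, Slc8a1, Slc35f2, Slc1a4, Slc36a1 and Slc35d1. All 3 Prps2null libraries lay below all 3 Eμ-Myc/+ libraries for 25 carriers and above them for 8, where 26.2% and 23.5% of all transcripts did so. When libraries were scaled by their totals alone, the median of all transcripts moved to 0.37, the calls over all transcripts went from 2163 higher and 2712 lower to 3885 and 1660, and the carriers counted 9 higher and 19 lower.

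**Figure D1:**
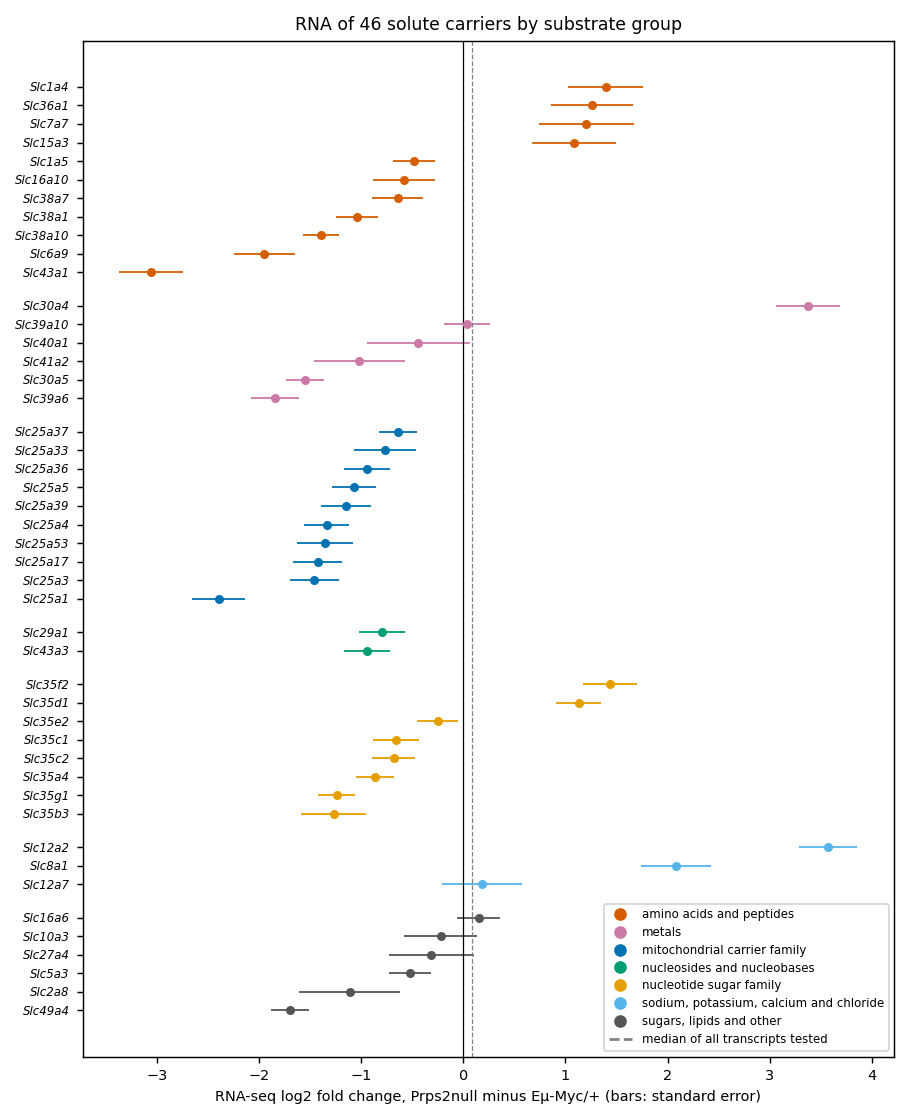
RNA-seq log2 fold change of each of the 46 carriers (Prps2null minus Eμ-Myc/+, horizontal axis), arranged by substrate or family. Points are edgeR estimates from 3 libraries per genotype, bars are standard errors, and the dashed line is the median of all transcripts tested. All 10 members of the mitochondrial carrier family lie left of 0, while amino acid carriers run from -3.06 to 1.39.

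The mitochondrial carrier family (SLC25) gave the most uniform picture. RNA of all 10 members was lower in the Prps2null lymphomas under median-of-ratios, TMM and library-total scaling, at a median of -1.24 on the log2 scale, and 9 of the 10 were called, all but Slc25a33. Slc25a1 (ENSMUST00000003622, chr16:17925211-17928219), the citrate carrier that supplies acetyl units for lipid synthesis, read 42.4, 46.1 and 36.7 in Eμ-Myc/+ and 4.73, 9.71 and 8.96 in Prps2null. Every Eμ-Myc/+ library lay far above every Prps2null library, a 5.26-fold lower level (-2.40 ± 0.26 on the log2 scale, SE). The phosphate carrier Slc25a3 (ENSMUST00000076694, chr10:91116574-91124046) read 284, 235 and 231 in Eμ-Myc/+ and 56.3, 104 and 111 in Prps2null, again with no overlap and a log2 fold change of -1.46 ± 0.24. Slc25a17 (ENSMUST00000023040, chr15:81318921-81360765), a family member of peroxisomes that carries coenzyme A and other cofactors, read 42.1, 39.7 and 41.3 in Eμ-Myc/+ and 9.46, 19.2 and 16.6 in Prps2null, a log2 fold change of -1.42 ± 0.24. The ADP/ATP exchangers Slc25a4 and Slc25a5 had log2 fold changes of -1.34 ± 0.22 and -1.07 ± 0.21, although reads of these near-identical paralogs may be split between them. Slc25a37, mitoferrin 1, which imports iron for haem synthesis, read 186, 161 and 189 in Eμ-Myc/+ and 103, 111 and 130.2 in Prps2null, with the smallest difference of the 10, -0.64 ± 0.19. Its call was lost with the replicate block (replicate number added to the fit) or scaling by library totals, as well as without Eμ-Myc/+ replicate 1, Eμ-Myc/+ replicate 3 or Prps2null replicate 2.

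Footprints of most of these carriers were closer to level across the 6 Ribo-seq libraries. Those of Slc25a3 were 514, 516 and 385 in Eμ-Myc/+ and 449.9, 497 and 468 in Prps2null, so the highest library exceeded the lowest 1.34-fold, where RNA spanned 4.97-fold (with 1 CPM added to each value). Slc25a17 footprints were 69.4, 70.5 and 89.3 in Eμ-Myc/+ and 86.1, 81.2 and 70.2 in Prps2null, a span of 1.28-fold against 4.12-fold in RNA. For Slc25a5 they ran from 511 to 718, and for Slc25a37 they were 55.2, 66.0 and 44.7 in Eμ-Myc/+ and 51.6, 52.8 and 59.2 in Prps2null. These spans use all 6 libraries and do not depend on which label each carries. By label the footprint log2 fold changes of Slc25a3, Slc25a17, Slc25a5 and Slc25a37 were 0.00 ± 0.16, 0.04 ± 0.18, 0.00 ± 0.17 and -0.01 ± 0.20. Without the 2 libraries they were -0.16 ± 0.11, 0.17 ± 0.19, -0.16 ± 0.10 and -0.13 ± 0.21. Over the 10 members the median span was 1.68-fold in footprints and 3.53-fold in RNA, and 9 of the 10 spanned less in footprints than in RNA, all but Slc25a53 (3.41-fold against 3.20-fold). Over all 8987 transcripts tested in both assays the medians were 1.71 and 1.97, and 59.4% spanned less in footprints. All members but Slc25a33 and Slc25a37 came from the list of raised TE in these libraries. Such a list can favour genes whose footprints hold while RNA falls, so the family's count describes the list. Footprints of Slc25a1 were 68.6, 94.1 and 28.5 in Eμ-Myc/+ and 37.0, 87.3 and 32.6 in Prps2null. For this carrier, Slc25a33, Slc25a39 and Slc25a53, the highest 3 libraries were Eμ-Myc/+ replicates 1 and 2 and Prps2null replicate 2. The same 3 were highest for Slc25a3 and Slc25a5, by a narrow margin. Their footprints in Prps2null replicates 2 and 3 were 497 and 468 for Slc25a3 and 670 and 649 for Slc25a5. Footprint log2 fold changes of the family ran from -0.35 to 0.04. Without the 2 libraries against their labels, the family median was -0.32, 9 of 10 members lay below 0, and Slc25a1 (-1.23 ± 0.22), Slc25a39 (-0.69 ± 0.21) and Slc25a53 (-1.21 ± 0.30) were called lower, in a fit that called 17.9% of all transcripts lower and 18% higher.

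**Figure D2:**
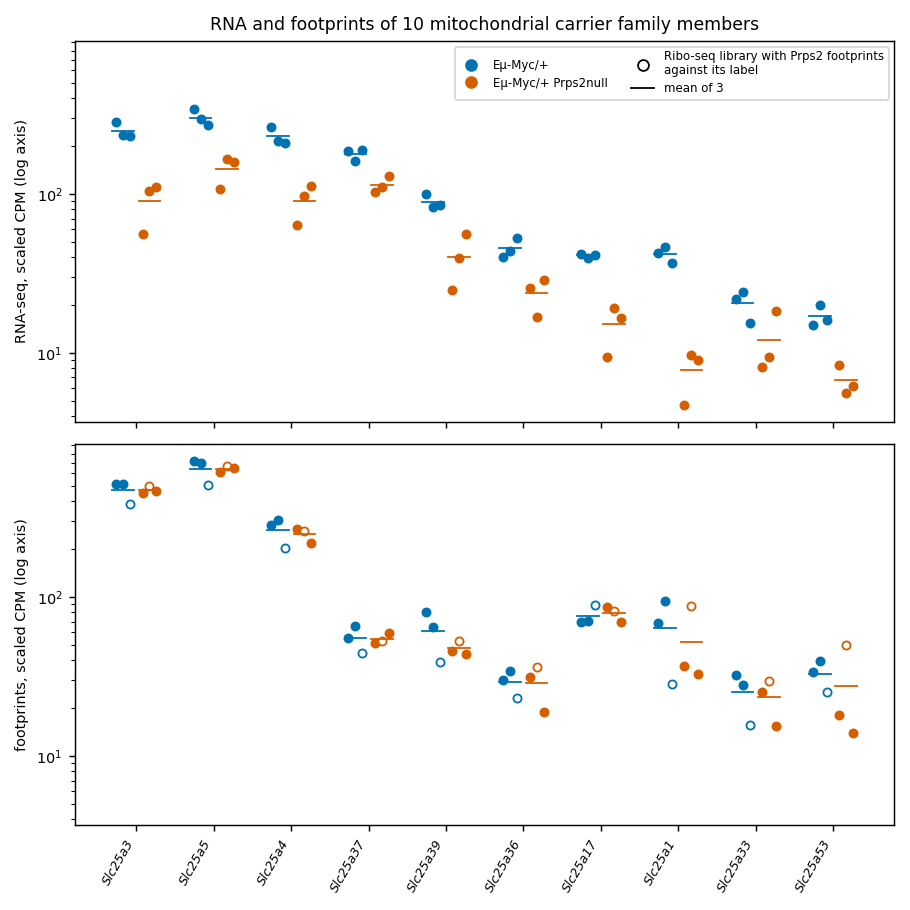
Scaled CPM (log axes) of the 10 mitochondrial carrier family members in each RNA-seq library (top) and each Ribo-seq library (bottom); points are libraries, lines are means of 3, and open points are the 2 Ribo-seq libraries whose Prps2 footprints stood against their labels. RNA of Slc25a3 lies at 231 to 284 in Eμ-Myc/+ and 56.3 to 111 in Prps2null, while its footprints lie between 385 and 516 in both.

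Carriers of amino acids and peptides, 11 genes, went both ways. Of these, 2 were called higher in RNA and 4 lower. Slc43a1 (ENSMUST00000028469, chr2:84838855-84863586), which encodes LAT3, an importer of leucine and related neutral amino acids, had the lowest fold change of all 46: its RNA was 21.2, 18.1 and 28.4 in Eμ-Myc/+ and 2.93, 3.13 and 2.01 in Prps2null, 8.31-fold lower (-3.06 ± 0.31 on the log2 scale). Its footprints were 43.9, 28.0 and 0.895 in Eμ-Myc/+ and 0, 36.4 and 4.65 in Prps2null, high in Eμ-Myc/+ replicates 1 and 2 and Prps2null replicate 2, with a wide gap to the other 3 libraries. The glycine transporter Slc6a9 (ENSMUST00000030269, chr4:117835258-117869305) had the same order, with RNA of 18.5, 24.4 and 26.7 in Eμ-Myc/+ and 6.98, 7.57 and 3.47 in Prps2null and a log2 fold change of -1.95 ± 0.30. Its footprints were 46.4, 51.4 and 2.07 in Eμ-Myc/+ and 3.38, 48.1 and 1.37 in Prps2null, high in the same 3 libraries as those of Slc43a1. By label the footprint log2 fold changes were -0.88 ± 1.54 and -0.99 ± 1.43, smaller than their errors. Without the 2 libraries they were -3.97 ± 0.58 and -4.41 ± 0.43.

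Slc38a10, a member of the sodium-coupled amino acid carriers, had RNA of 145, 150.0 and 132 in Eμ-Myc/+ and 57.2, 50.5 and 54.7 in Prps2null, 2.63-fold lower (-1.39 ± 0.18). Its footprints were 139, 156 and 68.6 in Eμ-Myc/+ and 77.8, 158 and 104 in Prps2null, highest in the same 3 libraries as those of Slc43a1 and Slc6a9, with log2 fold changes of -0.09 ± 0.37 by label and -0.69 ± 0.17 without the 2 libraries. The remaining call in this direction was Slc38a1 (-1.04 ± 0.20), SNAT1, which concentrates glutamine and other neutral amino acids. Slc1a5, the glutamine carrier ASCT2, had RNA of 302, 320.3 and 408 in Eμ-Myc/+ and 231, 222 and 283 in Prps2null, below in all 3 Prps2null libraries but not called. Its footprints were 416, 399 and 410.0 in Eμ-Myc/+ and 492, 589 and 438 in Prps2null. Here, by label, every Prps2null library lay above every Eμ-Myc/+ library (0.31 ± 0.15, and 0.19 ± 0.11 without the 2 libraries). Slc16a10 and Slc38a7, a carrier of aromatic amino acids and a lysosomal glutamine exporter, had log2 fold changes of -0.58 ± 0.30 and -0.64 ± 0.25 in RNA and were not called.

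The 4 carriers of this group from the list of genes higher at both levels are a light chain of an exchanger of cationic amino acids (Slc7a7), the neutral amino acid exchanger ASCT1 (Slc1a4) and lysosomal carriers of amino acids (Slc36a1) and of peptides with histidine (Slc15a3). Their RNA was low, at most 16.0 CPM in any library, and log2 fold changes lay between 1.08 ± 0.41 and 1.39 ± 0.37. The RNA call of Slc1a4 was lost without Eμ-Myc/+ replicate 3, and that of Slc36a1 without any single library other than Prps2null replicate 1. RNA of Slc15a3 was 2.17, 8.35 and 3.78 in Eμ-Myc/+ and 8.34, 12.7 and 10.2 in Prps2null, with Eμ-Myc/+ replicate 2 at the level of Prps2null replicate 1. Slc15a3 (1.08 ± 0.41) and Slc7a7 (1.20 ± 0.47) were not called in RNA. Both passed with DESeq2, library totals or the replicate block, without Prps2null replicate 1, and without Eμ-Myc/+ replicate 2 (1.75 and 1.68), and Slc7a7 also without Prps2null replicate 3. The log2 fold changes were lowest without Eμ-Myc/+ replicate 1, at 0.71 and 0.79. Footprints of Slc1a4 were 7.76, 26.2 and 56.7 in Eμ-Myc/+ and 62.3, 7.32 and 67.7 in Prps2null, high in Eμ-Myc/+ replicate 3 and in Prps2null replicates 1 and 3. Slc15a3 footprints were 7.25, 1.38 and 37.7 in Eμ-Myc/+ and 39.8, 8.61 and 39.7 in Prps2null, high in the same 3 libraries. The footprint log2 fold changes of Slc1a4 were 0.57 ± 0.84 by label and 1.95 ± 0.33 without the 2 libraries, and those of Slc15a3 were 0.83 ± 0.98 and 3.30 ± 0.46. Macrophage markers were higher in the footprints of some of the same libraries. They were also high in Prps2null replicate 2, where footprints of Slc1a4 and Slc15a3 were low (7.32 and 8.61). The 8 markers, none of which was at 0 in any library, summed to 105, 131 and 319 in Eμ-Myc/+ and 213, 318 and 367 in Prps2null in Ribo-seq. In RNA-seq the markers summed to 43.8, 64.6 and 78.4 in Eμ-Myc/+ and 58.1, 38.7 and 30.7 in Prps2null. Their part in the values of Slc7a7 and Slc15a3, which macrophages also express, was not tested. In bulk libraries fewer cells of a type and less RNA per cell cannot be told apart.

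**Figure D3:**
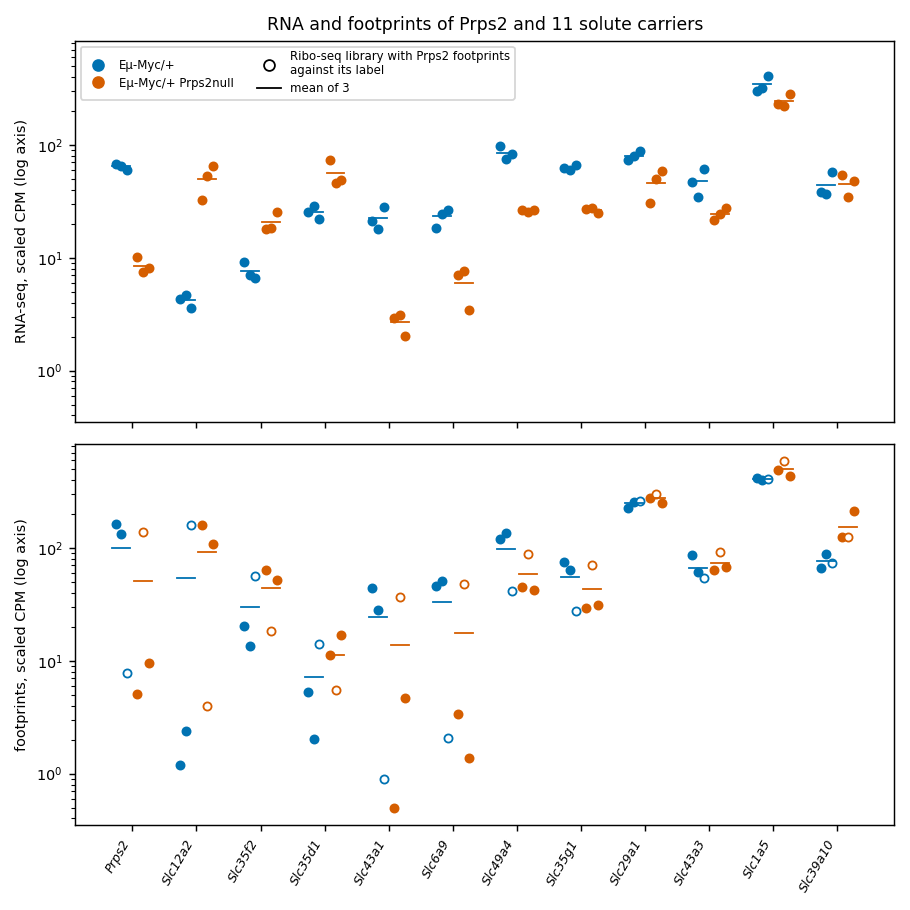
Scaled CPM (log axes) of Prps2 and 11 solute carriers in each RNA-seq library (top) and each Ribo-seq library (bottom); points are libraries, lines are means of 3, open points are the 2 Ribo-seq libraries whose Prps2 footprints stood against their labels, and values under 0.5 are drawn at 0.5. In Slc12a2, Slc43a1 and Slc6a9 the open points sit with the other genotype, as in Prps2, while footprints of Slc29a1 and Slc1a5 stay within a narrow range.

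The nucleoside carrier Slc29a1 (ENSMUST00000051574, chr17:45585200-45599618), known as ENT1, lets nucleosides pass for salvage into nucleotides, and Slc43a3 carries purine nucleobases. Slc29a1 RNA was 73.4, 79.5 and 88.0 in Eμ-Myc/+ and 30.4, 49.5 and 58.5 in Prps2null, 1.73-fold lower (-0.79 ± 0.22), without overlap. The call was lost with scaling by library totals and without Eμ-Myc/+ replicate 3. Footprints of Slc29a1 were 226, 256 and 263 in Eμ-Myc/+ and 279, 301 and 249 in Prps2null, a span of 1.33-fold over the 6 libraries, with a log2 fold change of 0.16 ± 0.14 by label and 0.14 ± 0.13 without the 2 libraries. Slc43a3 RNA was 46.4, 34.7 and 61.1 in Eμ-Myc/+ and 21.4, 24.5 and 27.8 in Prps2null, a log2 fold change of -0.94 ± 0.23, and its footprints were 86.0, 60.8 and 54.4 in Eμ-Myc/+ and 63.6, 91.6 and 67.4 in Prps2null (0.15 ± 0.24 by label and -0.16 ± 0.20 without the 2 libraries). For both carriers the RNA libraries were thus separated by genotype and the footprint libraries were not.

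Among 6 metal carriers, Slc30a4, a zinc exporter of intracellular vesicles (ZnT4), had RNA of 1.68, 2.25 and 1.78 in Eμ-Myc/+ and 17.6, 20.7 and 22.3 in Prps2null, 10.4-fold higher in the Prps2null lymphomas (3.37 ± 0.31). Its footprints were 0, 0 and 6.89 in Eμ-Myc/+ and 8.41, 2.48 and 2.34 in Prps2null, at or near the limit of 3 counts in most libraries, and it did not pass the footprint filter. The gene identifier paired with this transcript is not the one the reference list gives for Slc30a4, so its identity is uncertain. Zinc carriers of the other direction were Slc30a5, which loads zinc into the secretory pathway, with RNA of 122, 113 and 105 in Eμ-Myc/+ and 37.4, 34.4 and 44.4 in Prps2null (-1.55 ± 0.19), and the importer Slc39a6, with RNA of 212, 210.4 and 191 in Eμ-Myc/+ and 36.0, 65.3 and 69.5 in Prps2null (-1.84 ± 0.23). Footprints of Slc39a6 were 413, 406 and 217 in Eμ-Myc/+ and 247, 388 and 187 in Prps2null, higher in Eμ-Myc/+ replicates 1 and 2 and Prps2null replicate 2 than in the other 3, with log2 fold changes of -0.33 ± 0.34 by label and -0.91 ± 0.13 without the 2 libraries.

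Slc39a10 (ENSMUST00000027131, chr1:46807544-46925776), the zinc importer ZIP10, is known to support B cell survival. Its RNA was 38.3, 37.1 and 58.0 in Eμ-Myc/+ and 53.8, 34.7 and 47.9 in Prps2null, with a log2 fold change of 0.03 ± 0.23. Its footprints were 66.5, 88.6 and 72.9 in Eμ-Myc/+ and 125, 126 and 212 in Prps2null, so all 3 Prps2null libraries lay above all 3 Eμ-Myc/+ libraries, 2.04-fold higher on average (1.03 ± 0.26). Without the 2 libraries the log2 value was 1.13 ± 0.23, so the direction did not rest on them. The separation of the groups does depend on the labels of those libraries, and Slc39a10 came from the list of raised TE. The iron exporter ferroportin (Slc40a1) had RNA of at most 4.33 CPM, a log2 fold change of -0.44 ± 0.51 and footprints of 2.33, 4.96 and 14.5 in Eμ-Myc/+ and 11.2, 19.0 and 14.8 in Prps2null (0.93 ± 0.67, and 1.88 ± 0.56 without the 2 libraries). The lowest 2 libraries were Eμ-Myc/+ replicates 1 and 2, which also had the lowest footprint sums of the macrophage markers given above. Macrophages are a known site of ferroportin, and the part of such cells was not tested. Slc41a2, a magnesium carrier, had a log2 fold change of -1.02 ± 0.44 in RNA and did not pass the footprint filter.

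The nucleotide sugar family (SLC35), 8 genes, supplies the Golgi and endoplasmic reticulum with activated sugars and sulfate, and some members have no settled substrate. Here 2 were called higher in RNA and 5 lower. Slc35f2 (ENSMUST00000048670, chr9:53771433-53818161) had RNA of 9.14, 7.07 and 6.67 in Eμ-Myc/+ and 17.8, 18.4 and 25.4 in Prps2null, 2.71-fold higher (1.44 ± 0.26), and footprints of 20.4, 13.4 and 56.6 in Eμ-Myc/+ and 63.6, 18.2 and 51.6 in Prps2null (0.52 ± 0.62 by label and 1.77 ± 0.28 without the 2 libraries). Slc35d1, a carrier of UDP-glucuronic acid, had RNA of 25.3, 28.9 and 22.2 in Eμ-Myc/+ and 73.9, 46.1 and 48.5 in Prps2null, 2.19-fold higher (1.13 ± 0.22), and footprints of 5.30, 2.03 and 14.2 in Eμ-Myc/+ and 11.3, 5.53 and 16.8 in Prps2null (0.54 ± 0.74 by label and 1.97 ± 0.56 without the 2 libraries). For both, the 3 highest footprint libraries were Eμ-Myc/+ replicate 3 and Prps2null replicates 1 and 3.

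Slc35b3, which brings the sulfate donor PAPS into the Golgi, had RNA of 15.6, 10.4 and 11.1 in Eμ-Myc/+ and 4.96, 6.09 and 4.21 in Prps2null (-1.27 ± 0.32) and footprints between 13.3 and 25.7 (-0.07 ± 0.35 by label and -0.44 ± 0.35 without the 2 libraries). Slc35g1 had RNA of 61.8, 59.9 and 66.0 in Eμ-Myc/+ and 27.3, 27.6 and 24.7 in Prps2null, 2.36-fold lower (-1.24 ± 0.18), and footprints of 75.0, 63.9 and 27.8 in Eμ-Myc/+ and 29.6, 70.2 and 31.0 in Prps2null, again in 2 sets of 3 libraries (-0.35 ± 0.48 by label and -1.20 ± 0.22 without the 2 libraries). The other calls were Slc35a4 (-0.86 ± 0.19), the GDP-fucose carrier Slc35c1 (-0.66 ± 0.23) and Slc35c2 (-0.68 ± 0.21). The last 2 were lost with library totals and when either Eμ-Myc/+ replicate 1 or Prps2null replicate 2 was left out. Slc35c1 was also lost without Eμ-Myc/+ replicate 2, with the replicate block and with a filter of 10 counts in every library, and Slc35c2 also without Eμ-Myc/+ replicate 3. Slc35e2 had a log2 fold change of -0.25 ± 0.20, which turned positive with scaling by library totals.

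Carriers of sodium, potassium, calcium and chloride included the largest log2 fold change of the 46. RNA of Slc12a2, the cotransporter NKCC1 that brings sodium, potassium and chloride into cells, was 4.33, 4.66 and 3.56 in Eμ-Myc/+ and 32.7, 53.1 and 64.6 in Prps2null, 11.9-fold higher (3.57 ± 0.29). Its footprints were 1.19, 2.40 and 159 in Eμ-Myc/+ and 161, 3.96 and 109 in Prps2null, so the Ribo-seq libraries formed the same 2 sets as for Prps2, in the opposite order, with log2 fold changes of 0.67 ± 1.48 by label and 6.43 ± 0.42 without the 2 libraries. Slc8a1, a sodium-calcium exchanger, was higher in RNA by 2.08 ± 0.34 on the log2 scale. Slc12a7, the cotransporter KCC4 that lets potassium and chloride out, was 4.81, 4.34 and 7.11 in Eμ-Myc/+ and 8.56, 5.43 and 4.57 in Prps2null in RNA, overlapping between genotypes (0.19 ± 0.39). Its footprints of 3.16, 3.42 and 2.92 in Eμ-Myc/+ and 6.21, 7.80 and 9.13 in Prps2null were too few to pass the filter, although by label the 3 Prps2null libraries lay above the others.

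Of the 6 carriers of sugars, lipids and other substrates 1 was called, Slc49a4 (ENSMUST00000023554, chr16:35694062-35769370), a lysosomal family member, with RNA of 97.2, 75.0 and 83.1 in Eμ-Myc/+ and 26.4, 25.7 and 26.7 in Prps2null, 3.24-fold lower (-1.70 ± 0.19), and footprints of 119, 135 and 41.8 in Eμ-Myc/+ and 44.9, 88.6 and 42.6 in Prps2null (-0.74 ± 0.49 by label and -1.54 ± 0.19 without the 2 libraries). Slc5a3, which takes up myo-inositol, had RNA of 52.7, 58.1 and 68.2 in Eμ-Myc/+ and 53.8, 33.4 and 37.9 in Prps2null, not called (-0.52 ± 0.21); its locus overlaps Mrps6, as 8 of the 46 loci overlap another annotated gene, and how shared reads were assigned is not stated. Slc27a4, a fatty acid transport protein, had RNA of 8.66, 5.30 and 8.67 in Eμ-Myc/+ and 9.24, 6.09 and 2.93 in Prps2null (-0.31 ± 0.41). Its footprints were 10.3, 9.40 and 9.72 in Eμ-Myc/+ and 11.1, 16.6 and 13.0 in Prps2null. By label the Prps2null libraries lay above the others by a small margin (0.46 ± 0.36 by label and 0.30 ± 0.42 without the 2 libraries). The monocarboxylate family member Slc16a6 (0.15 ± 0.21), the orphan Slc10a3 (-0.22 ± 0.36) and the glucose carrier Slc2a8 (-1.11 ± 0.49) were not called in RNA, and the sign of Slc10a3 turned with scaling by library totals.

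In Ribo-seq 42 carriers passed the filter; Slc2a8, Slc12a7, Slc30a4 and Slc41a2 did not. No carrier was called by label, with edgeR or with DESeq2, and edgeR called 0% of the 9031 transcripts tested (0.52%, 47 transcripts, had an unadjusted p under 0.05, of the carriers Slc39a10). The median log2 fold change of the carriers was 0.08, with 25 above 0 and 17 below. All 3 Prps2null libraries lay above all 3 Eμ-Myc/+ libraries for 5 of the 46 carriers, Slc1a5, Slc10a3, Slc27a4, Slc39a10 and the untested Slc12a7, where 2.29% of transcripts tested did so, and below them for none (2.31% of transcripts). Both groups hold a library that stood against its label, so these separations depend on the labels. All 5 but Slc10a3 came from the list of raised TE, so this count describes the list. Without the 2 libraries the values of Slc1a5, Slc10a3, Slc27a4 and Slc39a10 were 0.19 ± 0.11, 0.50 ± 0.30, 0.30 ± 0.42 and 1.13 ± 0.23. Without the 2 libraries against their labels, 11 carriers were called higher (18% of all transcripts) and 11 lower (17.9%), and the median was -0.15. The 11 higher were 8 from the list of genes higher at both levels (Slc1a4, Slc7a7, Slc8a1, Slc12a2, Slc15a3, Slc35d1, Slc35f2 and Slc36a1) with Slc16a6, Slc39a10 and Slc40a1. The 11 lower were Slc6a9, Slc43a1, Slc38a1, Slc38a10, Slc30a5, Slc39a6, Slc35g1, Slc49a4, Slc25a1, Slc25a39 and Slc25a53. This fit leaves 2 Ribo-seq libraries per genotype.

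**Figure D4:**
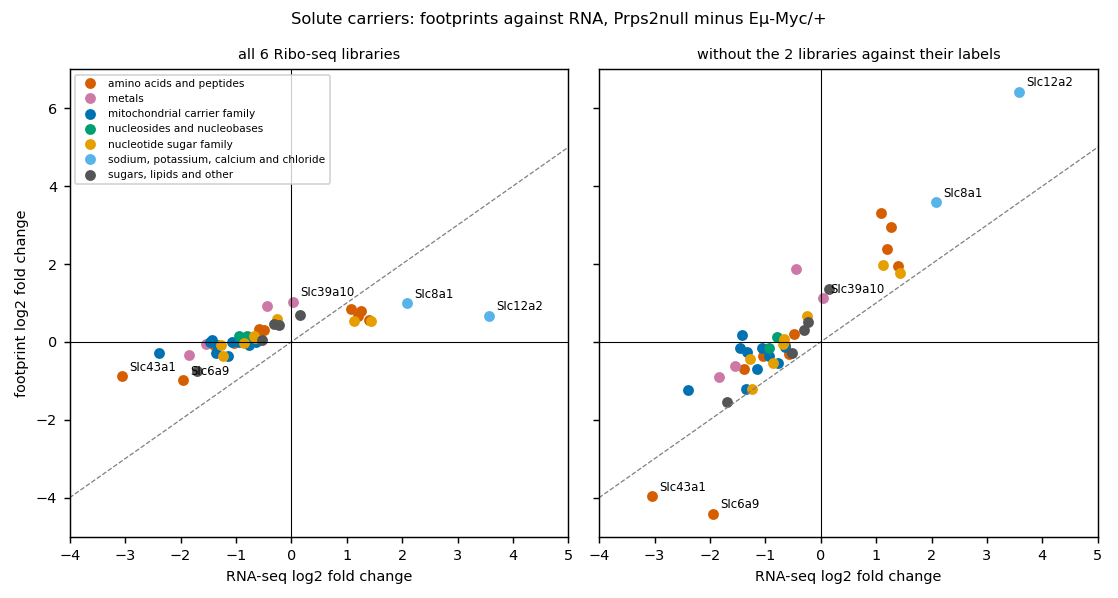
Footprint log2 fold change (vertical axis) against RNA-seq log2 fold change (horizontal axis) of the 42 carriers tested in both assays, Prps2null minus Eμ-Myc/+, with all 6 Ribo-seq libraries (left) and without the 2 libraries against their labels (right); points are coloured by substrate group and the dashed line marks equal change. The footprint values run from -0.99 to 1.03 on the left and from -4.41 to 6.43 on the right, with most carriers above the dashed line.

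TE was higher in the Prps2null lymphomas for 34 of 42 carriers, in a table where 69.5% of transcripts lay above 0, and the median log2 change was 0.86 against 0.28 over all 8987 transcripts. Of the 42 carriers tested 29 were listed for raised TE in these libraries, and these 29 lay above 0. The 8 below 0 were those tested from the list of genes higher at both levels. The test of the genotype by assay interaction called Slc25a3 (1.46 ± 0.33) and Slc25a17 (1.47 ± 0.32) higher, with 2.16% of all transcripts, and none lower, with 0.0334%. At an unadjusted p under 0.05, 19 carriers and 20.5% of all transcripts passed. By the study's methods RNA and footprints came from the same lymphomas. The 2 Ribo-seq libraries whose Prps2 footprints stood against their labels leave that pairing uncertain for their lymphomas, since the RNA stood as labelled. With each lymphoma, as labelled, as a block in the fit neither carrier was called. Both calls were also lost with library totals, with no filter, without Eμ-Myc/+ replicate 1, 2 or 3, and without Prps2null replicate 2 or 3, with 0 carriers called higher in each case. Without the 2 Ribo-seq libraries against their labels, TE lay above 0 for 40 of 42 carriers with a median of 0.73 (0.34 over all transcripts). Slc25a3 (1.30 ± 0.33), Slc25a17 (1.59 ± 0.34), Slc30a5 (0.94 ± 0.25) and Slc12a2 (2.91 ± 0.79) were then called higher, with 3.14% of all transcripts, and Slc6a9 (-2.50 ± 0.62) lower, with 0.478%. For Slc12a2 the sign depended on those libraries, since its TE by label was -2.92 ± 1.61. The TE of Slc25a1 went from 2.11 ± 0.63 to 1.16 ± 0.37, and that of Slc29a1 from 0.95 ± 0.29 to 0.93 ± 0.31.

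Footprint to RNA ratios of carriers are given as a description, in the labels whose Prps2 footprints stood as labelled. Whether RNA reads outside the coding sequence were counted was not checked, so ratios of different carriers may not be comparable. In Eμ-Myc/+ replicates 1 and 2 Slc29a1 had ratios of 3.07 and 3.21, among the highest, and in Prps2null replicates 1 and 3 they were 9.18 and 4.25. Slc25a3 went from 1.81 and 2.19 to 7.99 and 4.21. Slc25a37, the carrier with a TOP start, had low ratios of 0.297 and 0.409 in Eμ-Myc/+ and 0.503 and 0.455 in Prps2null. Slc5a3 and Slc35a4 were low in all 4 pairs of libraries, with highest ratios of 0.382 and 0.280. The medians over all transcripts were 1.48 and 1.59 in Eμ-Myc/+ and 2.19 and 1.77 in Prps2null.

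A list of 23 other membrane transport genes, drawn from names in the same lists, was read beside the carriers. In RNA-seq 18 were called lower and 3 higher (Abcb10, Abcc1 and Atp6v0a1), where 18.5% and 14.7% of all transcripts were, and the list's median log2 fold change was -0.95 against 0.08 over all transcripts. The names came from lists drawn on this contrast, so these counts describe the list. The transferrin receptor Tfrc, through which cells take up iron, had RNA of 1700.0, 1396 and 1020.2 in Eμ-Myc/+ and 263, 283 and 308 in Prps2null (-2.27 ± 0.24). The monocarboxylate carrier chaperone basigin (Bsg) had a log2 fold change of -0.95 ± 0.20. The ABC exporter Abcc1 had RNA of 9.14, 11.1 and 5.78 in Eμ-Myc/+ and 36.3, 48.9 and 55.8 in Prps2null (2.42 ± 0.26) and footprints of 1.10, 3.54 and 71.1 in Eμ-Myc/+ and 72.9, 0.810 and 38.9 in Prps2null, in the same 2 sets of libraries as Slc12a2 (0.48 ± 1.35 by label and 4.45 ± 0.51 without the 2 libraries). For 19 of the 22 tested in both assays the 6 libraries spanned less in footprints than in RNA, as did 59.4% of all transcripts. That count describes the list as well.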

How the data were processed

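RNA-seq (Takara stranded total RNA kit) and Ribo-seq (RNase I footprints) of 3 lymphomas per genotype were read from 1 table. Per the submitters' notes and the study's methods, the authors trimmed reads with cutadapt 2.3, collapsed molecular identifiers with umitools 0.3.3, aligned with Bowtie2 2.3.5 (build mm10) to 1 isoform per gene, that of longest coding sequence, and retained 23 to 32 nucleotide footprints, which they corrected for stalling. The RNA-seq values the authors deposited are raw counts per transcript. For Ribo-seq, the authors deposited expected counts, of which 54.3% are not whole, and they were rounded for tests.

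From these, edgeR 4.0.16 quasi-likelihood tests (R 4.3.3, limma 3.58.1) were fitted over all transcripts with median-of-ratios scaling within each assay, filterByExpr for low counts, and calls at a Benjamini-Hochberg adjusted p under 0.05. TE was the interaction of genotype and assay over 12 libraries. Scripts were tested on simulated data. Alternatives were TMM scaling, library totals, 2 other filters, DESeq2 1.42.0, replicate and lymphoma blocks, logistic regression, and leaving out libraries. Fold changes are Prps2null minus Eμ-Myc/+.

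The carriers, gene lists and tests were chosen with earlier results of these data known. RNA-seq values in every library are given for the 3 carriers per substrate group with the largest RNA-seq change at a mean of at least 5 CPM (outside 6 carriers drawn by the study). They are also given for Slc30a4, Slc35f2, Slc35d1, Slc29a1, Slc43a3 and Slc25a37. Footprints in every library are given for the same carriers except Slc5a3, Slc30a5 and Slc35b3. RNA-seq or Ribo-seq values of others were added after they were seen (Slc1a5, Slc39a10, Slc40a1, Slc1a4, Slc12a2, Slc15a3, Tfrc and Abcc1). Library values of Ms4a1, Atp6v0a1, Atp6v0b, Atp6v1a and Abca2 are likewise given outside the choice above. 1 gene of the list of other membrane transport genes is not reported here and was left out of its counts. Coding lengths were not used here, so no level per length was computed. Positions are RefSeq gene spans on GRCm38.p6; Slc49a4 is paired there as Dirc2.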

Additional observations from a re-analysis of the deposited data

How the results depend on the processing

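In RNA-seq the counts of carriers called stayed within 1.5 times the reported ones under all 12 alternatives, from 5 to 9 higher and 20 to 28 lower when 1 library was left out. The median log2 fold change of -0.73 was -0.43 with library totals, which moved the median of all transcripts by 0.29, and ran from -0.90 to -0.71 when 1 library was left out. Slc25a37, Slc29a1, Slc35c1, Slc35c2, Slc36a1 and Slc1a4 each lost the RNA-seq call in at least 1 setting. In Ribo-seq no carrier was called under any alternative except leaving out both libraries against their labels (11 higher, 11 lower, median -0.15), and the median ran from -0.02 to 0.15 when 1 library was left out.

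TE calls were the least stable. Against 2 carriers called higher, there were 0 with library totals, with no filter and with the lymphoma block, 11 with DESeq2, 33 with logistic regression (5 lower) on counting error alone, and 4 (1 lower) without both libraries against their labels. Leaving out each lymphoma, with its RNA-seq and Ribo-seq libraries paired by label, gave 0 to 2. The median of 0.86 was 0.57 with library totals and 0.66 to 1.13 without 1 lymphoma. The cause was not tested.

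Same-numbered libraries were not treated as paired in the main fits. Their deviations correlated at -0.24, -0.13 and 0.02 in RNA-seq and at -0.62, 0.75 and 0.71 in Ribo-seq. In Ribo-seq Eμ-Myc/+ replicates 1 and 2 went with Prps2null replicate 2 (0.74 and 0.75). Eμ-Myc/+ replicate 3 went with Prps2null replicates 1 and 3 (0.77 and 0.71). These are the sets of libraries formed by the Prps2 footprints, so the Ribo-seq values do not settle pairing by number. With the replicate block 5 carriers were called higher in TE, 9 higher and 21 lower in RNA-seq, and 0 in Ribo-seq.

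Depth limits the low carriers, since Slc2a8, Slc12a7, Slc30a4 and Slc41a2 had too few footprints to test.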

Other observations

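Stromal marker footprints differed between libraries without following the genotype labels. Summed over Col1a1, Col1a2, Col3a1 and Sparc they were 78.2, 244 and 99.0 in Eμ-Myc/+ and 66.8, 587 and 152 in Prps2null scaled CPM, highest in Prps2null replicate 2, while the RNA sums were 56.8, 121 and 115 in Eμ-Myc/+ and 27.0, 15.6 and 15.0 in Prps2null. The T cell markers Lck and Tcf7 summed to 47.0, 36.5 and 28.4 in Eμ-Myc/+ and 26.5, 49.3 and 27.9 in Prps2null in Ribo-seq and 37.1, 32.1 and 42.0 in Eμ-Myc/+ and 21.9, 18.8 and 20.8 in Prps2null in RNA-seq.

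The transport genes beside the carriers included subunits of the vacuolar proton pump, which acidifies lysosomes. Of these only Atp6v0a1 was higher in RNA of the Prps2null lymphomas, from 8, 13 and 9 counts in Eμ-Myc/+. Atp6v0c (-0.67 ± 0.20), Atp6v0e (-0.99 ± 0.27), Atp6v1f (-1.01 ± 0.24) and Atp6ap1 (-0.71 ± 0.22) were called lower, and Atp6ap2 (-0.59 ± 0.25) was lower but not called. RNA of Atp6v0a1 was 1.93, 2.09 and 2.00 in Eμ-Myc/+ and 15.3, 6.25 and 8.96 in Prps2null, higher in Prps2null (2.31 ± 0.43 on the log2 scale), whereas that of Atp6v0b was 17.1, 19.4 and 22.0 in Eμ-Myc/+ and 6.98, 5.92 and 6.04 in Prps2null, lower (-1.63 ± 0.26), and that of Atp6v1a was 58.7, 51.4 and 44.9 in Eμ-Myc/+ and 23.9, 25.0 and 29.3 in Prps2null (-0.99 ± 0.19). Footprints of Atp6v0a1 were 0, 3.29 and 20.4 in Eμ-Myc/+ and 16.1, 5.08 and 24.9 in Prps2null (0.83 ± 1.08 by label and 3.71 ± 0.67 without the 2 libraries of the Ribo-seq against their labels), and those of Atp6v1a were 191, 222 and 132 in Eμ-Myc/+ and 116, 161 and 148 in Prps2null (-0.35 ± 0.23 and -0.64 ± 0.16). RNA of Abca2, an ABC family member, was 235, 189 and 203 in Eμ-Myc/+ and 48.7, 77.0 and 90.3 in Prps2null (-1.53 ± 0.23).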
